A study of Mus musculus with 2 samples.

Results

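A set of 10 genes of hepatic iron handling was followed in cultured mouse primary hepatocytes, the main cell of the liver. They are the iron hormone hepcidin (Hamp), the genes whose products set its level (Hfe, Hfe2, Tfr2 and Tmprss6), the uptake genes Tfrc and Slc11a2, the storage genes Fth1 and Ftl1, and the exporter Slc40a1. The genes were picked by symbol for their known roles, with earlier results of these data known. All 10 of 10 were listed, among 14339 named genes. They were compared between a culture given ClpP siRNA, which targets the proteolytic subunit of the ClpXP protease inside mitochondria, and a control culture given siRNA to the jellyfish reporter GFP, with 1 library each. Both groups share the cell type, the transfection with a Lipofectamine reagent and the library kit. The strain, age and sex of the mice, the siRNA dose, the time of harvest and the number of animals pooled are not given in the sources used here. With 1 library per group there is no estimate of the spread between cultures, so every difference below is a difference between these 2 libraries and none carries an SD, a standard error or a p-value.

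Hepcidin is a peptide that hepatocytes secrete. It binds ferroportin, the iron exporter encoded by Slc40a1, and sends it to degradation, which keeps iron inside hepatocytes, macrophages and gut cells. Transcription of Hamp is known to be driven by bone morphogenetic proteins through SMAD factors, a pathway that carries the iron signal, and by interleukins through STAT3, which carries the inflammatory signal. Inside the cell, the iron regulatory proteins bind hairpins called iron-responsive elements. Bound to the 5′ UTR they block translation, and bound to the 3′ UTR of Tfrc they protect the mRNA from decay.

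The 2 classes of control sequence that set these genes apart are shown first. Of the 10 genes, 6 have an entry in the RefSeq promoter table (GRCm38.p6), and these are Hamp, Hfe, Tfr2, Tfrc, Fth1 and Ftl1. The 250 bases before the transcription start of Hamp are set beside those of its neighbour and close copy Hamp2, because the pair can be compared in both sequence and level. In Hamp the capitals mark GGCGCC, the core of the BMP response element, and a match to TTCNNNGAA, the letters of a STAT site. In Hamp2 they mark the bases that align with those 2 stretches.
Hamp (chr7:30944030-30944279, minus strand): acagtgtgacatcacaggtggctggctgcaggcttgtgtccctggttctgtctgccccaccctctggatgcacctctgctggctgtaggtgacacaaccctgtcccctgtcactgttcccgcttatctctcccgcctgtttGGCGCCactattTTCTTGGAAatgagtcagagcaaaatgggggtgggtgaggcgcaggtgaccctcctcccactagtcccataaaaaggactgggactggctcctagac
Hamp2 (chr7:30924182-30924431, minus strand): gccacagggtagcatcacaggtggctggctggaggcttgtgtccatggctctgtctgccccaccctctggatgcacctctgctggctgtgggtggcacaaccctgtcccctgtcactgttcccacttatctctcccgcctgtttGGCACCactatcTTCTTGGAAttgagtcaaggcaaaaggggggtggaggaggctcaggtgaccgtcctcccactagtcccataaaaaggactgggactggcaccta
The Hamp and Hamp2 windows were identical at 227 of 247 aligned bases, or 91.9%. GGCGCC lay 109 to 104 bases before the Hamp start, and the aligned letters of Hamp2 are GGCACC. The STAT match, TTCTTGGAA, was the same in both, 97 to 89 bases before the Hamp start and 94 to 86 bases before that of Hamp2. Searched on both strands over the same 250 bases of 32851 promoters, GGCGCC was found in 9.59%, TTCNNNGAA in 7.02% and both together in 0.368%. AANNGAAA, the recognition core of interferon regulatory factors, was found in 21.3% of promoters and matched neither window. Among the other members with an entry, 1 of the Tfrc windows held GGCGCC and the Hfe window held AANNGAAA on the other strand, and no window of Tfr2, Fth1 or Ftl1 held any of the 3 motifs. The motifs were chosen with the expression values known. A match is a description of letters, and binding was not measured.

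The iron-responsive elements were read from GENCODE M21 transcripts (GRCm38). The search asked for a C, a stem of 5 pairs that allows G with U, a loop CAGTGN, and at least 4 of 6 pairs below the C. Of 21877 genes with protein-coding transcripts, 47 held a match, or 0.215%. Among the 10 genes, 4 did, and the 29 bases of each are shown with the loop in capitals, since the placement of the hairpin decides how the mRNA answers iron.
Fth1 (chr19:9982732-9982760, plus strand, 5′ UTR): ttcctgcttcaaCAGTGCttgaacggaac
Ftl1 (chr7:45459779-45459807, minus strand, 5′ UTR): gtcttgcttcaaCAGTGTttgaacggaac
Slc40a1 (chr1:45925465-45925493, minus strand, 5′ UTR): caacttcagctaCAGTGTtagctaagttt
Tfrc (chr16:32631219-32631247, plus strand, 3′ UTR): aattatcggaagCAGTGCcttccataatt
Tfrc (chr16:32631598-32631626, plus strand, 3′ UTR): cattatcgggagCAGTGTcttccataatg
Tfrc (chr16:32631663-32631691, plus strand, 3′ UTR): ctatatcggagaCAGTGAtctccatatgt
Tfrc (chr16:32631710-32631738, plus strand, 3′ UTR): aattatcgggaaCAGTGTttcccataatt
Tfrc held 4 such hairpins in its 3′ UTR, and Fth1, Ftl1 and Slc40a1 held 1 each in the 5′ UTR. Slc11a2, which is known to have a transcript form with a 3′ UTR element, held no match to this strict pattern. Its deposited value joins 2 transcripts, so forms with and without the element cannot be told apart.

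Values are FPKM as the authors computed them, that is, sequenced fragments divided by transcript length and by the mapped total, so levels of different genes in a library can be set side by side. The log2 ratio is log2(FPKM + 1) with ClpP siRNA minus log2(FPKM + 1) with GFP siRNA, so that a positive ratio means higher with ClpP siRNA and the change of genes of low FPKM is understated. A gene is called higher or lower where the ratio is at least 1 in size, which is 2-fold. This is a rule of size and says nothing of chance. Clpp itself, the target, stood at 9.32 FPKM with ClpP siRNA and 45.1 FPKM with GFP siRNA. The 2 libraries also differed in their interferon genes. Of 20 interferon response genes, chosen with earlier results of these data known, 19 were at least 2-fold higher with ClpP siRNA. Among all genes with a mean of at least 1 FPKM, 5.19% were. The summed level of the 20 was 5544 FPKM with ClpP siRNA and 416 FPKM with GFP siRNA. Depth is unknown, since FPKM carries no read counts.

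Of the 10 iron genes, Hamp was at least 2-fold higher with ClpP siRNA, and 0 were at least 2-fold lower. Among all 11087 genes with a mean of at least 1 FPKM, 5.19% were at least 2-fold higher and 2.04% at least 2-fold lower. A count of 1 in 10 is near that background and is no result about the 10 genes as a group. Their median log2 ratio was 0.04, against -0.01 for all genes, and 5 lay above 0 and 5 below. For 7 of the 10 the ratio was within 0.3 of 0, as it was for 58.8% of all genes.

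**Figure D1:**
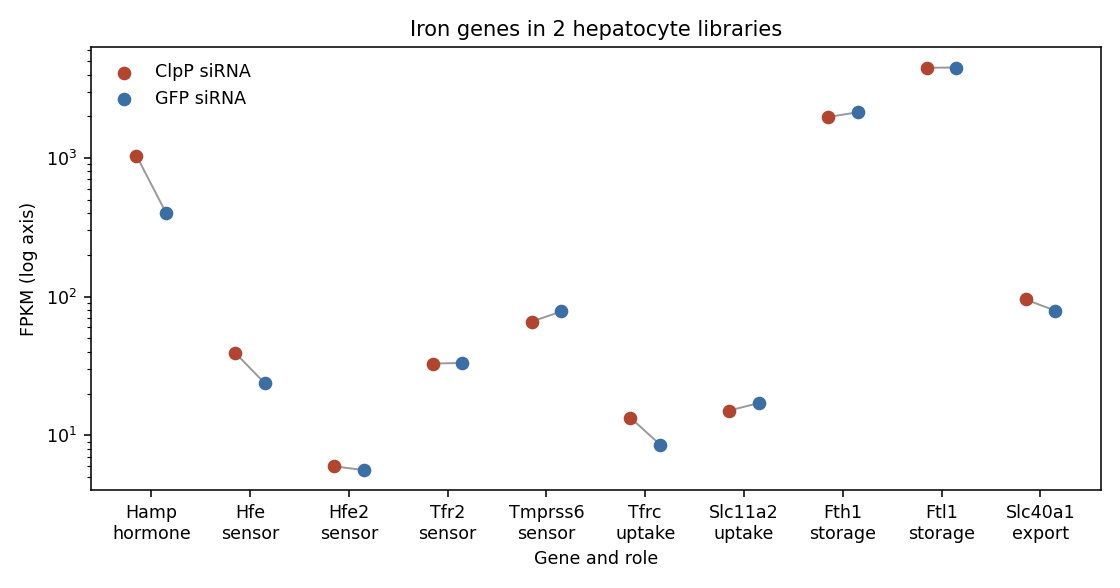
FPKM (log axis) of the 10 iron genes in the ClpP siRNA library (left point of each pair) and the GFP siRNA library (right point), 1 library each, with the role of each gene under its name. Hamp differs most, at 1038 FPKM with ClpP siRNA and 401 FPKM with GFP siRNA, while the points of Ftl1 and Tfr2 are level.

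Hamp (NCBI gene 84506) stood at 1038 FPKM in the ClpP siRNA library, against 401 FPKM in the GFP siRNA library. The level was 2.59 times as high with ClpP siRNA, a log2 ratio of 1.37, and 365 of the 11087 genes had a higher ratio. Hepcidin mRNA ranked 64th in abundance among all genes with ClpP siRNA and 192nd with GFP siRNA. Of the 771 genes with a mean of at least 100 FPKM, 9.86% were at least 2-fold higher. The authors' deposited table gives Hamp a fold change of 2.72 after quantile normalization.

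Hamp2 (NCBI gene 66438), the nearby duplicate whose peptide in mouse is not known to act on iron as hepcidin does, was far less abundant. It had 9.15 FPKM with ClpP siRNA and 3.97 FPKM with GFP siRNA, a log2 ratio of 1.03. In both libraries Hamp was about as far above it, 114 times as high with ClpP siRNA and 101 times with GFP siRNA. The Hamp and Hamp2 transcripts were identical at 388 of 410 aligned bases, or 94.6%, so a difference of Hamp2 itself and reads shared with the abundant Hamp cannot be told apart. The Hamp2 ratio fell short of 2-fold under 4 of 7 other pseudocounts and scalings, down to 0.66.

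The level of Hamp was also set beside genes that mark hepatocytes, since in a bulk culture more hepatocytes and more RNA of a gene per hepatocyte cannot be told apart. Of 7 hepatocyte markers, 5 were at least 2-fold higher with ClpP siRNA, against 5.19% of all genes with a mean of at least 1 FPKM. The 7 markers summed to 7133 FPKM with ClpP siRNA and 3308 FPKM with GFP siRNA. Albumin (Alb), the main plasma protein, had 6245 FPKM with ClpP siRNA and 2952 FPKM with GFP siRNA. Per albumin, Hamp stood at 16.6% with ClpP siRNA and 13.6% with GFP siRNA, a ratio of 1.22 between the libraries. Against the sum of all 7 markers it was 1.20, but albumin made up most of that sum in both libraries, so this is no separate scale. Against the single markers it ran from 0.294 for the urea cycle enzyme Cps1, over 0.767 for Apoa1, 1.21 for Tat and 1.22 for Ttr to 3.25 for Apob and 4.27 for Asgr1. Against the heme carrier hemopexin (Hpx), which is no marker in the list, it was 2.44. No pseudocount entered these ratios, so low levels weigh on the ends of the range. Cps1 had 27.8 FPKM with ClpP siRNA and 3.15 FPKM with GFP siRNA. Asgr1 had 4.19 FPKM with ClpP siRNA and 6.91 FPKM with GFP siRNA. The excess of Hamp thus depended on which hepatocyte gene it was set beside, and the part of the marker shift in the Hamp difference was not tested. The 5 cholangiocyte markers summed to 937 FPKM with ClpP siRNA and 1629 FPKM with GFP siRNA. Most of this was Spp1, at 870 FPKM with ClpP siRNA and 1605 FPKM with GFP siRNA. Krt19 went the other way, with 50.2 FPKM with ClpP siRNA and 9.58 FPKM with GFP siRNA. The 9 stellate and fibroblast markers summed to 16.2 FPKM with ClpP siRNA and 35.5 FPKM with GFP siRNA.

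**Figure D2:**
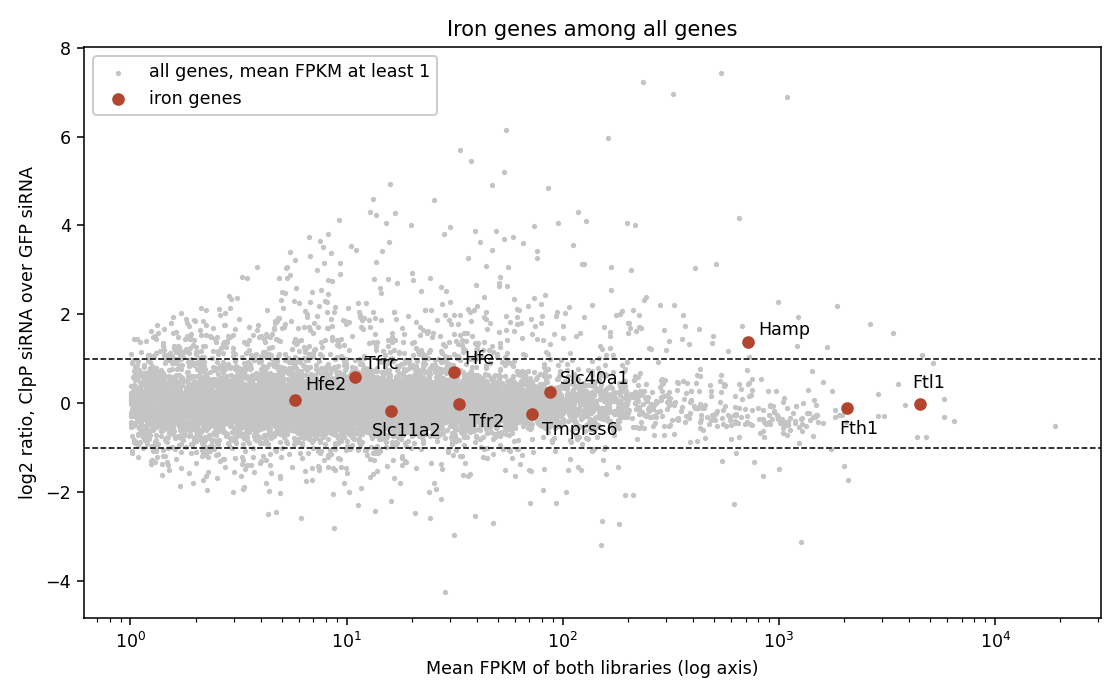
Log2 ratio of ClpP siRNA over GFP siRNA against mean FPKM of both libraries (log axis), with all 11087 genes in grey, the 10 iron genes in red and dashed lines at 2-fold. Hamp lies above the upper line at 1.37, and the other 9 iron genes lie between the lines.

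The genes upstream of hepcidin had log2 ratios of -0.24 to 0.71. Hfe (NCBI gene 15216), an MHC class I-like protein that signals iron-loaded transferrin, had 39.3 FPKM with ClpP siRNA and 23.7 FPKM with GFP siRNA. Its log2 ratio of 0.71 was the highest after Hamp and stayed under 2-fold, and 87.5% of all genes had a smaller ratio in size. Hfe2 (NCBI gene 69585), which encodes hemojuvelin, the BMP co-receptor, had 5.99 FPKM with ClpP siRNA and 5.60 FPKM with GFP siRNA, the lowest levels of the 10 genes. Tfr2 (NCBI gene 50765), the transferrin receptor that acts as an iron sensor on hepatocytes, was level at 32.9 FPKM with ClpP siRNA and 33.3 FPKM with GFP siRNA. Its log2 ratio was -0.01.

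Tmprss6 (NCBI gene 71753) encodes matriptase 2, the protease that cleaves hemojuvelin and restrains hepcidin. It had 66.1 FPKM with ClpP siRNA and 78.2 FPKM with GFP siRNA, a log2 ratio of -0.24 and the lowest among the 10. About as many genes had a ratio of smaller size (49.0%) as of larger. None of the 4 genes upstream of hepcidin passed 2-fold.

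Neither uptake gene passed 2-fold. Tfrc (NCBI gene 22042), the transferrin receptor that brings iron into most cells, had 13.4 FPKM with ClpP siRNA and 8.58 FPKM with GFP siRNA. This is 1.56 times as high, with a log2 ratio of 0.59. In both libraries the sensor Tfr2 was more abundant per length than Tfrc, 2.46 times with ClpP siRNA and 3.88 times with GFP siRNA. Slc11a2 (NCBI gene 18174) encodes DMT1, which moves ferrous iron out of endosomes. It had 15.1 FPKM with ClpP siRNA and 17.1 FPKM with GFP siRNA, a log2 ratio of -0.17.

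The ferritin mRNAs were the most abundant members and were nearly equal in the 2 libraries. Ftl1 (NCBI gene 14325), the light chain, had 4473 FPKM with ClpP siRNA and 4494 FPKM with GFP siRNA, a log2 ratio of -0.01, and ranked 8th in abundance with ClpP siRNA and 7th with GFP siRNA. Fth1 (NCBI gene 14319), the heavy chain with the ferroxidase activity, had 1975 FPKM with ClpP siRNA and 2136 FPKM with GFP siRNA, a log2 ratio of -0.11. The light chain mRNA was 2.26 times as abundant as the heavy chain mRNA with ClpP siRNA and 2.10 times with GFP siRNA. The sign of the Fth1 ratio turned to 0.02 in the authors' quantile-normalized values, so no direction is given for it. Mouse ferritin genes have processed copies. Of 14 further Ftl and Fth names in the annotation, 0 were listed with values of their own, and reads shared with such copies could shift these values.

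Slc40a1 (NCBI gene 53945), ferroportin, had 95.4 FPKM with ClpP siRNA and 79.3 FPKM with GFP siRNA, a log2 ratio of 0.26. The level of Hamp was 10.9 times that of Slc40a1 with ClpP siRNA and 5.06 times with GFP siRNA. Liver macrophages also make ferroportin, so their markers are given beside it. Of 12 macrophage markers, 11 were listed, and apart from the lysosomal gene Cd68, which many cells make, their sum was 6.65 FPKM with ClpP siRNA and 16.6 FPKM with GFP siRNA. With Cd68 the sum was 233 FPKM with ClpP siRNA and 41.4 FPKM with GFP siRNA. Leaving Cd68 out was not a planned step, and it turns the direction of the sum. Of the macrophage markers, Clec4f, which defines resident liver macrophages, was near 0. It had 0.0718 FPKM with ClpP siRNA and 0.777 FPKM with GFP siRNA. No erythroid marker of 11 and no lymphocyte or neutrophil marker of 10 was listed.

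Set by hairpin class, the 3 genes with a 5′ UTR hairpin had log2 ratios of -0.11 (Fth1), -0.01 (Ftl1) and 0.26 (Slc40a1), and Tfrc, with 4 hairpins in the 3′ UTR, had 0.59. The iron regulatory proteins act on the translation of the first class, which mRNA levels do not show. Aco1, which encodes iron regulatory protein 1, had 64.9 FPKM with ClpP siRNA and 65.2 FPKM with GFP siRNA. Ireb2, which encodes iron regulatory protein 2, had 11.3 FPKM with ClpP siRNA and 13.8 FPKM with GFP siRNA, a log2 ratio of -0.27. Both were named after their values were seen.

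**Figure D3:**
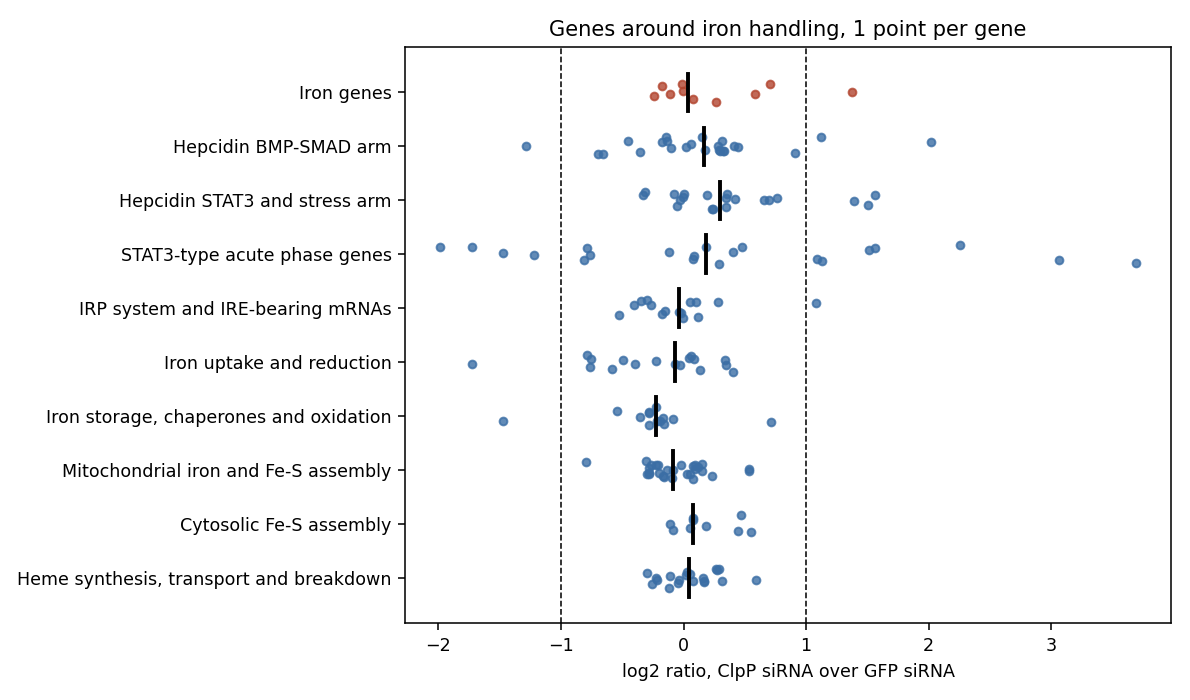
Log2 ratio of ClpP siRNA over GFP siRNA, 1 point per gene of mean FPKM at least 1, for the 10 iron genes (red) and 9 lists around them (blue), with the median of each as a black bar and dashed lines at 2-fold. The acute phase list spreads from -1.99 to 3.69, while the mitochondrial, cytosolic and heme lists hold no gene past 2-fold. Of all genes, 5.19% were at least 2-fold higher and 2.04% at least 2-fold lower.

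The lists that surround the 10 genes were described by the same rule, and their counts and medians stand beside the 5.19% higher, the 2.04% lower and the median of -0.01 over all genes. In the BMP and SMAD arm, 24 of 33 genes had a mean of at least 1 FPKM, 2 were at least 2-fold higher and 1 at least 2-fold lower, and the median log2 ratio was 0.17. These counts are near that background and are no result about the list. The 2 higher genes are direct targets of SMAD signalling. Id3 had 295 FPKM with ClpP siRNA and 72.0 FPKM with GFP siRNA (log2 ratio 2.02), and Id1 had 148 FPKM with ClpP siRNA and 67.3 FPKM with GFP siRNA (log2 ratio 1.13). Other genes read as targets of the pathway, named after their values were seen, had smaller ratios, 0.91 for Atoh8, 0.45 for Smad7, 0.32 for Smad6 and 0.15 for Id2. Bambi, another such target and also named after its values were seen, had 0.705 FPKM with ClpP siRNA and 0.987 FPKM with GFP siRNA, a log2 ratio of -0.22, and fell short of the mean of 1 FPKM. Of the 24 genes of the list, 15 lay above 0 and 9 below.

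The gene past 2-fold in the other direction encodes a ligand. Bmp6, the iron-regulated ligand that sinusoidal endothelial cells make in mouse liver, had 1.53 FPKM with ClpP siRNA and 5.14 FPKM with GFP siRNA. Its log2 ratio was -1.28, and with a pseudocount of 5 it was -0.64, short of 2-fold. Bmp2, named after its values were seen, had 0.221 FPKM with ClpP siRNA and 1.11 FPKM with GFP siRNA. All 12 markers of sinusoidal endothelial cells were listed, with a sum of 55.9 FPKM with ClpP siRNA and 39.5 FPKM with GFP siRNA. Flt4, a receptor of lymphatic and sinusoidal endothelium, had 37.8 FPKM with ClpP siRNA and 8.09 FPKM with GFP siRNA. Leaving Flt4 out was not a planned step, and it turns the direction of the sum. Without it the markers summed to 18.2 FPKM with ClpP siRNA and 31.4 FPKM with GFP siRNA. Their log2 ratios went both ways, at -1.36 for Pecam1, -1.20 for Cdh5, -0.79 for Eng, -0.64 for Stab2, -0.51 for Kdr, -0.48 for Fcgr2b, -0.42 for Lyve1, -0.15 for Stab1, -0.04 for Tek, 0.33 for Oit3, 0.59 for Clec4g and 2.09 for Flt4. The part of these markers in the Bmp6 difference was not tested.

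In the STAT3 and stress arm, 20 of 22 genes passed the mean of 1 FPKM, 3 were at least 2-fold higher and 0 lower, and the median log2 ratio was 0.30. Over all genes, 5.19% were higher and 2.04% lower. The count of higher genes in this arm was 1 with a pseudocount of 5, and 1 among genes with a mean of at least 5 FPKM. Ddit3, the stress factor CHOP, had 109 FPKM with ClpP siRNA and 36.1 FPKM with GFP siRNA, a log2 ratio of 1.56. Socs3, a STAT3 target that feeds back on it, had 6.84 FPKM with ClpP siRNA and 1.76 FPKM with GFP siRNA, a log2 ratio of 1.51. Il22ra1, a receptor chain for interleukin 22, had 7.57 FPKM with ClpP siRNA and 2.26 FPKM with GFP siRNA, a log2 ratio of 1.39. At these low levels the pseudocount matters, and with 5 in place of 1 the ratios were 0.81 for Socs3 and 0.79 for Il22ra1. Stat3 itself, named after its values were seen, had 53.9 FPKM with ClpP siRNA and 40.0 FPKM with GFP siRNA.

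Acute phase genes, many of which STAT3 induces in hepatocytes as it does Hamp, differed in both directions. Of 23 genes, 21 passed the mean of 1 FPKM, 7 were at least 2-fold higher and 4 at least 2-fold lower, with a median log2 ratio of 0.19. The shares over all genes were 5.19% higher and 2.04% lower. The list was chosen with earlier results of these data known, and the part of STAT3 in these differences was not tested. The higher ones were the serum amyloids Saa2 (3.69) and Saa1 (3.06), the interleukin 1 antagonist Il1rn (2.26), the orosomucoids Orm2 (1.56) and Orm1 (1.51), the antichymotrypsin gene Serpina3n (1.13) and the fibrinogen chain Fga (1.09). The lower ones were the pentraxins Crp (-1.99) and Apcs (-1.22), haptoglobin (Hp, -1.73) and ceruloplasmin (Cp, -1.48). Saa1 and Saa2, and likewise Orm1 and Orm2, are near copies that can exchange reads. Fga (0.95) fell short of 2-fold in the authors' normalized values, and Serpina3n (0.95) and Apcs (-0.76) did so with a pseudocount of 5.

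Haptoglobin and ceruloplasmin also stood in the uptake and storage lists. In the uptake list 17 of 23 genes passed the mean of 1 FPKM, with 0 higher and 1 lower past 2-fold and a median log2 ratio of -0.07. The lower one was haptoglobin, which binds free hemoglobin, at 969 FPKM with ClpP siRNA and 3213 FPKM with GFP siRNA. Counts of 0 and 1 are near the 5.19% higher and 2.04% lower of all genes and are no result about the list. The siderophore binder Lcn2 had a log2 ratio of -0.79 and the ferric reductase Steap4 one of -0.76. Transferrin (Trf), the plasma iron carrier and named after its values were seen, had 3546 FPKM with ClpP siRNA and 5999 FPKM with GFP siRNA, a log2 ratio of -0.76.

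In the storage list, which also holds chaperone and oxidation genes, 13 of 17 genes passed the mean of 1 FPKM. Past 2-fold, 0 were higher and 1 lower, near the 5.19% and 2.04% of all genes. A ratio below 0 was found for 12 of the 13, with a median of -0.22, against -0.01 for all genes. Apart from Cp, Bdh2 and App (-0.35), those below 0 were within 0.3 of 0, as were 58.8% of all genes. The count of signs was not tested. Ceruloplasmin, the plasma ferroxidase that loads exported iron onto transferrin, had 525 FPKM with ClpP siRNA and 1463 FPKM with GFP siRNA, a log2 ratio of -1.48. Bdh2, linked to a mammalian siderophore, had -0.55. The gene above 0 was Ncoa4, the receptor that takes ferritin to the lysosome, at 76.6 FPKM with ClpP siRNA and 46.2 FPKM with GFP siRNA, a log2 ratio of 0.72.

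The list of iron regulatory proteins and mRNAs with known or proposed hairpins had 15 of 17 genes past the mean of 1 FPKM. Of these, 1 was higher and 0 lower past 2-fold, with a median of -0.04. Such counts are near the 5.19% higher and 2.04% lower of all genes and are no result about the list. Hao1, a peroxisomal oxidase of hepatocytes, had 5.27 FPKM with ClpP siRNA and 1.97 FPKM with GFP siRNA, a log2 ratio of 1.08 that was 0.56 with a pseudocount of 5. Vhl, which targets hypoxia-inducible factors for decay, had -0.53, and Hif1a had -0.40.

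Mitochondria use much of the cell's iron, for iron-sulfur clusters and heme, and ClpP acts in their matrix. Of 28 genes of mitochondrial iron import and cluster assembly, all 28 passed the mean of 1 FPKM and 0 were past 2-fold in either direction. The median log2 ratio was -0.09. With 5.19% of all genes higher and 2.04% lower, a count of 0 is near that background and is no result about the list. The largest ratios in size were those of Bola1 (-0.79), which acts with glutaredoxin 5, the ferredoxin Fdx1 (0.54) and the iron importer mitoferrin 1 (Slc25a37, 0.53). Slc25a37 had 16.8 FPKM with ClpP siRNA and 11.3 FPKM with GFP siRNA.

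Of 9 genes of cytosolic cluster assembly, 0 were past 2-fold and the median log2 ratio was 0.08, with Mms19 at 0.55, Ciao1 at 0.47 and Nubp2 at 0.45. Of 23 genes of heme synthesis, transport and breakdown, 20 passed the mean of 1 FPKM and 0 were past 2-fold, with a median of 0.04. For both lists a count of 0 is near the 5.19% higher and 2.04% lower of all genes and is no result. Alas1, the rate-limiting enzyme of heme synthesis in liver, had 44.2 FPKM with ClpP siRNA and 28.95 FPKM with GFP siRNA, a log2 ratio of 0.59. Slc46a1, a folate carrier that also moves heme, had 0.31, and the lysosomal heme carrier Slc48a1 had -0.30. Clpx, the partner of ClpP that is known to activate the heme synthesis enzyme, had 18.7 FPKM with ClpP siRNA and 16.6 FPKM with GFP siRNA. Hmox1, which breaks heme down and frees its iron, had 102 FPKM with ClpP siRNA and 90.9 FPKM with GFP siRNA. These last 2 genes were named after their values were seen.

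**Figure D4:**
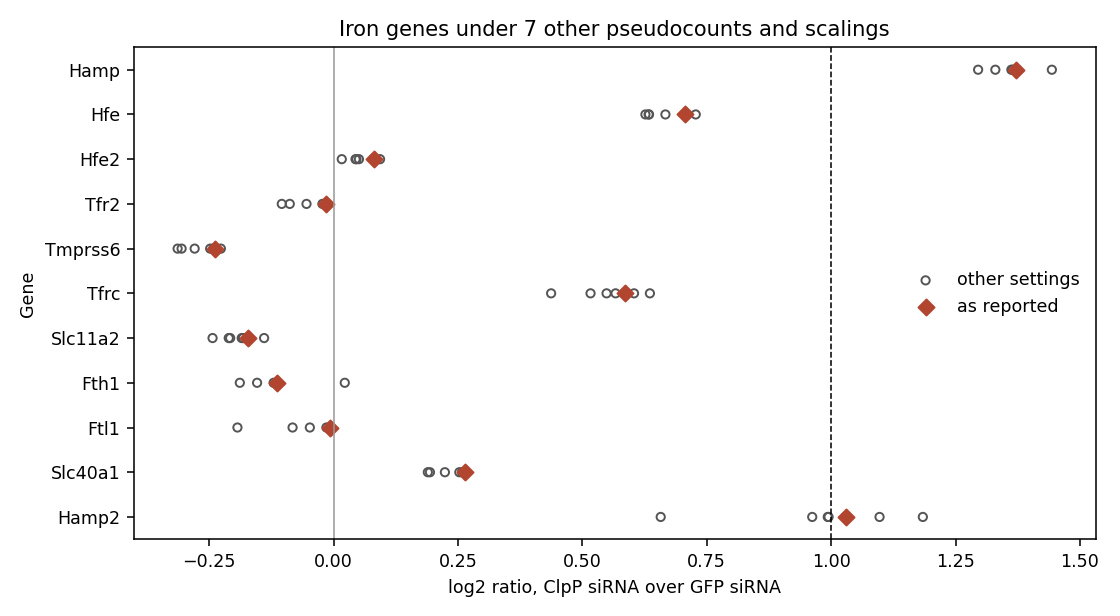
Log2 ratio of ClpP siRNA over GFP siRNA for the 10 iron genes and Hamp2, as reported (red diamonds) and under 7 other pseudocounts and scalings (open circles), with a dashed line at 2-fold and a grey line at 0. Hamp stays between 1.30 and 1.44 and Hamp2 falls on both sides of 2-fold.

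Of the 10 iron genes, Hamp was at least 2-fold higher under all 7 other pseudocounts and scalings, with log2 ratios of 1.30 to 1.44. The other 9 stayed within 2-fold under all 7. Hfe ranged over 0.63 to 0.73 and Tfrc over 0.44 to 0.64. Tmprss6 stayed below 0 and Slc40a1 above 0 under each of the 7.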

How the data were processed

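Poly-A RNA of mouse primary hepatocytes was sequenced, with 1 library of cells given ClpP siRNA and 1 given GFP siRNA. The deposited table holds FPKM per gene, computed by the authors. STAR 2.4.0f1, Cufflinks 2.2.1, Bowtie2 2.2.3, TopHat2 2.0.13, Trimmomatic 0.32 and FastQC 0.10.0 are named in the submitters' processing notes. Their order is unknown, and the genome build is not given in the sources used here. The deposited log2 columns equal quantile-normalized log2(FPKM + 1) to within 0.001. A deposited score is the authors' signed fold change of those columns. The header of the ClpP siRNA column is shortened and was matched by its letters only.

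Of 14346 rows, 7 that name no single gene, by a blank or repeated symbol, were dropped. They held 0.0335% of the FPKM with ClpP siRNA and 0.0475% with GFP siRNA. No listed value is exactly 0, but the smallest, 3.31e-58 FPKM, is 0 in effect, so a value near 0 is a model estimate. Depth is unknown, so no interval or floor is given. Ratios were computed in Python 3.11.15 with pandas 2.3.3 and NumPy 2.4.6, over genes with a mean of at least 1 FPKM. The procedure was run on simulated data with planted changes and no noise. That outcome was fixed by the formula, so it checks the arithmetic and says nothing of how reliable a call is. No test was possible with 1 library per group. The members and lists were chosen with earlier results of these data known. The text names all members, list genes past 2-fold and the 3 largest ratios per list, except for the interferon list and the cell type markers, which are given mainly as counts and sums. Alternatives were other pseudocounts (0.1 and 5), 4 scalings, the authors' log2 values and other filters on FPKM. Promoters came from RefSeq (GRCm38.p6) and transcripts from GENCODE M21.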

Additional observations from a re-analysis of the deposited data

How the results depend on the processing

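Of 237 counts and checks recomputed under other pseudocounts, scalings and filters, 222 stayed within 1.5 times the reported value or on the same side of 2-fold, and 15 moved. Every setting used the same 2 libraries, and many of the 222 were counts of 0 that stayed 0. The tally is therefore no measure of how far the results would repeat. With a pseudocount of 0.1, 357 of all genes were at least 2-fold lower, against 226 as reported, and 2 of the BMP and SMAD list were lower. With a pseudocount of 5, 327 of all genes were at least 2-fold higher, against 575 as reported, and 89 lower. The BMP and SMAD list then had 0 lower, the STAT3 and stress list 1 higher, the list of iron regulatory proteins 0 higher, and Hamp2 no longer passed (0 in the list of copies). Hamp2 also fell short (0) in the authors' log2 values, with totals that leave out the 50 most abundant genes and with upper quartile scaling. Over genes with a mean of at least 5 FPKM, 142 of all genes were lower, the BMP and SMAD list had 0 lower, the STAT3 and stress list 1 higher and the list of iron regulatory proteins 0 higher. No scaling moved the median log2 ratio of all genes by over 0.1. No paired analysis was possible because each group holds 1 library, and for the same reason no library could be left out. Depth is unknown, so the precision of low values, such as those of Bmp2 and Bmp6, cannot be stated.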

Other observations

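The genes most like Hamp were sought by the distance between log2(FPKM + 1) values over the 2 libraries, a measure of level and difference that rests on 2 points. Genes with only a provisional symbol (Gm, Rik or LOC) were left out. The nearest of the rest were Itm2b (distance 0.26), Lgals9 (0.38), Ctsz (0.40), Ctsl (0.45) and S100a6 (0.64). Ctsl and S100a6 are near in level, but their differences stayed under 2-fold, unlike that of Hamp. Itm2b, an integral membrane protein, had 971 FPKM with ClpP siRNA and 473 FPKM with GFP siRNA. Lgals9, which encodes galectin 9, had 1038 FPKM with ClpP siRNA and 308 FPKM with GFP siRNA. Ctsz and Ctsl encode lysosomal cathepsins. Ctsz had 807 FPKM with ClpP siRNA and 357 FPKM with GFP siRNA, and Ctsl had 895 FPKM with ClpP siRNA and 529 FPKM with GFP siRNA. S100a6, a calcium-binding protein, had 885 FPKM with ClpP siRNA and 607 FPKM with GFP siRNA.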
